A study of Homo sapiens with 12 samples.

Results

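The pentose phosphate pathway and the synthesis of phosphoribosyl pyrophosphate (PRPP) were followed through 9 genes, TKT, TKTL1, TALDO1, PGD, PGLS, RPIA, RPE, PRPS1 and PRPS2, of the 11939 genes with a probe set of their own on the smaller of 2 Affymetrix array types and of 19740 on the larger. All probe sets annotated to these symbols were taken, 14 on the smaller type and 23 on the larger, including on each type 1 RPE probe set whose annotation also names RPEL1. The genes were proposed with results of these arrays in view: they were chosen by the measured rises of TKTL1 in DU145-DR cells and of PRPS2 in 22Rv1-DR cells, each among the 10 largest of its line. Those rises are therefore described here without a test, and the remaining members and comparisons were tested. Every one of the 9 genes passed the filter on dim values, TKTL1 through DU145-DR cells alone. Its tested probe set read at most 55.7 in the other groups, under the filter's intensity of 74.0.

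The samples were DU145-DR cells, DU145 cells, 22Rv1-DR cells and 22Rv1 cells, with 3 arrays in each of the 4 groups. DU145 and 22Rv1 are established human prostate cancer lines, and the DR cells are docetaxel-resistant cells of the same line. Docetaxel is a taxane that stabilises microtubules. Parental cells were grown in RPMI medium with fetal bovine serum alone and resistant cells in the presence of docetaxel, so resistance and exposure to the drug cannot be told apart in any comparison. The labels do not say whether the resistant cells were clones or mixed populations, or whether replicates came from separate cultures, so that p-values may measure only technical spread. Replicates 1 and 2 of each group were on the smaller array type (8 arrays) and replicate 3 on the larger (4 arrays). In each line the arrays of replicate 3 are called the third pair, which has no test.

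The pentose phosphate pathway draws glucose 6-phosphate off glycolysis. Its oxidative branch yields NADPH and ribulose 5-phosphate, and its non-oxidative branch exchanges carbon units between sugar phosphates, linking ribose 5-phosphate to glycolysis in both directions. Ribose 5-phosphate is made into PRPP, the activated sugar from which purine, pyrimidine and pyridine nucleotides are built.

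Values are probe-set intensities on a linear scale. The dimmest probe sets were brighter on DU145 than on 22Rv1 arrays of the smaller type (5th percentiles of 35.8 to 38.6 and 11.5 to 12.3), so levels there were compared within a line only. In the 4-array table the distributions were alike, with medians of 37.5 to 39.7. Of 7 prostate epithelial marker genes, all 7 lay above the array median on every 22Rv1-DR and 22Rv1 array, against 3 on every DU145-DR array and 4 on every DU145 array. The prostate markers KLK3, KLK2 and HOXB13 were below the median on every array of the DU145 groups, and so was the epithelial cadherin CDH1 on every DU145-DR array.

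**Figure D1:**
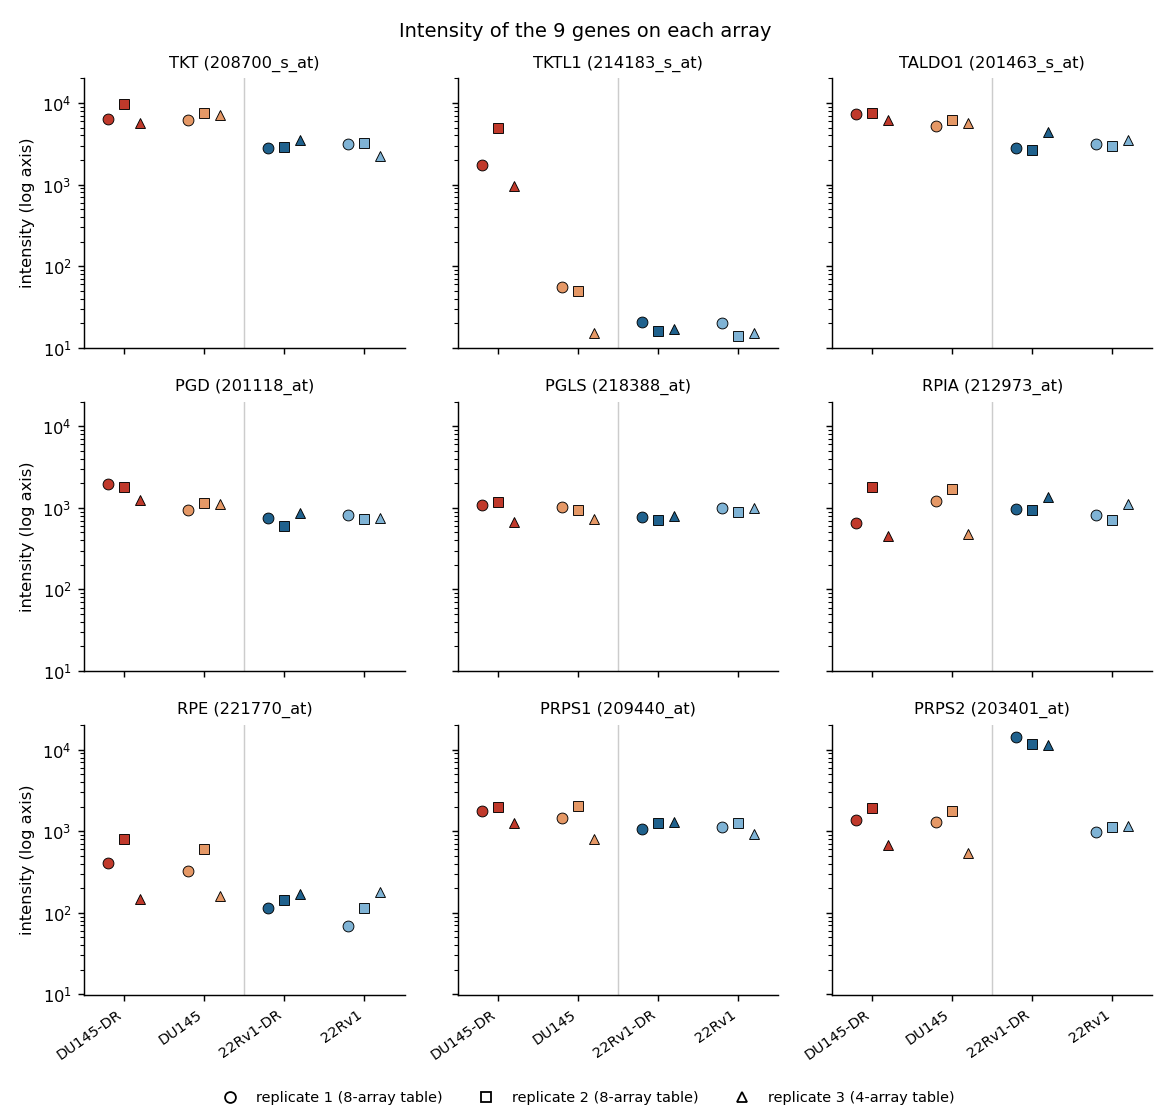
Intensity of 1 probe set of each of the 9 genes on every array (log axis), with circles for replicate 1, squares for replicate 2 and triangles for replicate 3 on the other array type, and resistant groups left of their parental groups. TKTL1 stands at 955.4 to 4871.0 in DU145-DR cells and at no more than 55.7 elsewhere, and PRPS2 at 11505.2 to 14164.6 in 22Rv1-DR cells and at no more than 1951.0 elsewhere.

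TKTL1, a gene related to the transketolase gene TKT and annotated on the X chromosome, was far more abundant in DU145-DR than in DU145 cells. With probe set 214183_s_at its intensity was 1722.2 and 4871.0 on the DU145-DR arrays of replicates 1 and 2 and 955.4 on that of replicate 3, against 55.7, 49.2 and 14.9 on the DU145 arrays. The lowest DU145-DR value was more than an order of magnitude above the highest DU145 value, although they come from different array types. Within replicates the DU145-DR intensity was 30.9, 99.0 and 64 times the DU145 intensity. The mean change over replicates 1 and 2, on the scale of log2(intensity + 16) used for every change below, was 5.41 ± 0.41 (SE, n = 2 per group), and the third pair differed by 4.97. Each DU145 value lay below the 25th percentile of its array, at the 15.5, 16.3 and 17.3 percentiles, while the DU145-DR values lay at the 87.6, 94.8 and 92.3 percentiles. A fold against values this near the floor depends on the floor. The DU145-DR arrays also differed among themselves, replicate 2 being well above replicate 1.

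The other TKTL1 probe set, 216370_s_at, moved the same way and by less. It read 448.8, 749.6 and 209.4 on the DU145-DR arrays against 61.8, 54.6 and 29.9 on the DU145 arrays, so the groups did not overlap within either array type. Its DU145-DR intensity was 7.26, 13.7 and 7.01 times that of DU145, a mean change of 3.01 on the log2 scale. TKTL1 in the 22Rv1 line was near the floor with or without resistance. There 214183_s_at read 20.8, 15.8 and 17.1 in 22Rv1-DR cells and 19.8, 14.0 and 15.2 in 22Rv1 cells (log2 change 0.06 ± 0.41, limma adjusted p = 1, 0.09 on the third pair). On the 4 arrays with like distributions, DU145-DR stood alone at 955.4, and the other 3 groups lay between 14.9 and 17.1, too close to be ordered with 1 array each.

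The rise in DU145-DR went together with a change in epithelial markers. Of the 7 epithelial genes tested 3 fell in DU145-DR (CDH1, EPCAM and KRT18) and none rose, against 5.48% and 5.53% of all genes. The summed intensity of the list was 8737 to 8746 on the DU145-DR arrays of replicates 1 and 2 against 16532 to 20372 on the DU145 arrays. The part of these markers in the TKTL1 result was not tested. In such bulk RNA, a change in the share of cells with the transcript and a change in the amount per cell cannot be told apart.

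For a gene that was far higher in resistant cells and a relative of it that was not, the sequences in front of their annotated starts are shown next, 250 bases each as given by RefSeq (GRCh38.p14), at chrX:154295545-154295794 and chrX:154304920-154305169 (plus strand) for the 2 TKTL1 starts and chr3:53256023-53256272 (minus strand) for TKT. Capitals mark matches on either strand to the GC box GGGCGG, the box CCAAT, the TATA box TATAAA, the E-box CACGTG or the antioxidant response core TGACNNNGC, which 42.6%, 32.0%, 10.7%, 6.34% and 10.9% of the 35116 promoters of that length in the table hold. Both TKTL1 windows hold none of these motifs, and the TKT window holds 5 GC boxes, of which neighbouring ones overlap in 2 places, and 1 CCAAT.
TKTL1 start 1: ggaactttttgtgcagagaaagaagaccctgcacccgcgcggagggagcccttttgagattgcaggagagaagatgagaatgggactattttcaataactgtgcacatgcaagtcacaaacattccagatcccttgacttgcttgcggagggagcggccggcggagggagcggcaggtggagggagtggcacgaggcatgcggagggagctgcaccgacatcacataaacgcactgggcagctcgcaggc
TKTL1 start 2: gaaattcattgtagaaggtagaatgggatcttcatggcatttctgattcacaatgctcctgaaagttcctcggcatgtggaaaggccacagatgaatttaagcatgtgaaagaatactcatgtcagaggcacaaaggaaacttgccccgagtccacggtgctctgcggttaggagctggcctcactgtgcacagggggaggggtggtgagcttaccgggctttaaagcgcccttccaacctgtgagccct
TKT: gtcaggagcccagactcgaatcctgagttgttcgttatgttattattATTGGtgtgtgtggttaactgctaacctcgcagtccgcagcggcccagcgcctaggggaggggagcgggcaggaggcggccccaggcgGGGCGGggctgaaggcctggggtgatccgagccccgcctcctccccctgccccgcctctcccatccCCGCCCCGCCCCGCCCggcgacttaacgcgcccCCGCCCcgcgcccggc
The TKTL1 windows had 57.2% and 50.8% GC with 13 and 6 CpG dinucleotides, against 70.4% GC and 24 CpG for TKT and medians of 58.0% and 11 over all promoters in the table. A match is a run of letters only, and the arrays do not show which start was used.

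TKT, the transketolase of the non-oxidative branch, did not pass the test in either line. Its probe set 208700_s_at read 6295.0, 9809.7 and 5673.4 in DU145-DR cells against 6208.4, 7590.6 and 7181.2 in DU145 cells. The groups overlapped, the change was 0.19 ± 0.24 (limma adjusted p = 0.764), and the third pair differed the other way, by -0.34. Its 22Rv1 values were 2836.7, 2856.4 and 3541.1 in resistant cells against 3147.5, 3191.5 and 2225.6 in parental cells, a change of -0.15 ± 0.24 (adjusted p = 0.971) with 0.67 on the third pair. Another probe set, 208699_x_at, gave 0.22 in DU145 and -0.12 in 22Rv1, with the opposite signs on the third pairs (-0.71 and 0.57). One found on the larger array type only, 228205_at, gave 0.32 and 0.79 on the third pairs.

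**Figure D2:**
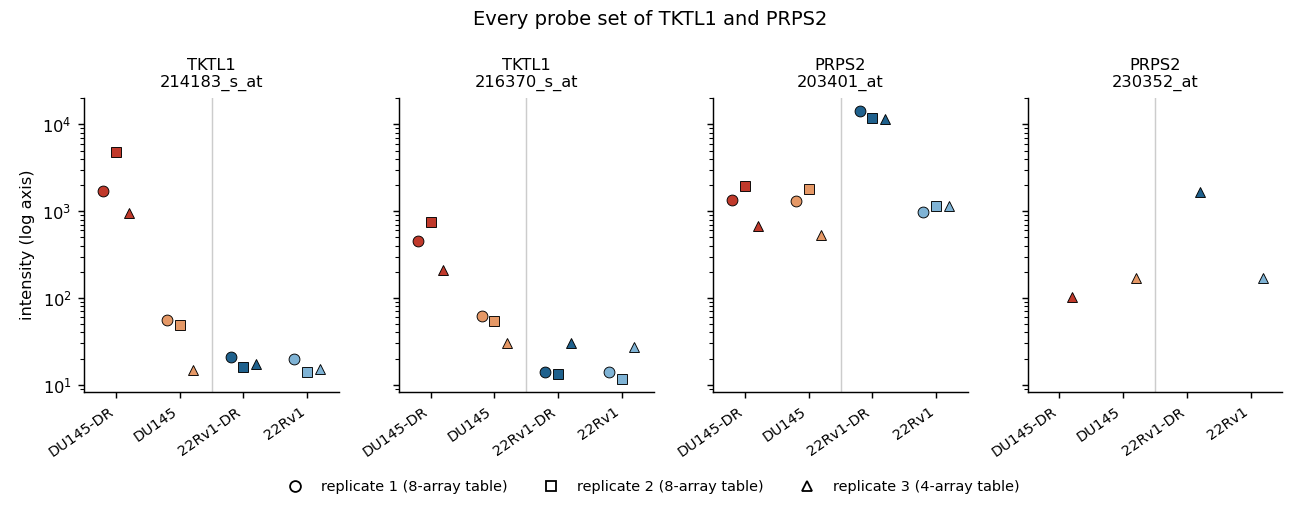
Intensity of every probe set of TKTL1 and PRPS2 on every array (log axis), with symbols and group order as in the plot of all 9 genes, 230352_at being on the larger array type only. Both TKTL1 probe sets are high in DU145-DR cells alone, and both PRPS2 probe sets are high in 22Rv1-DR cells, at 11505.2 to 14164.6 and at 1663.5.

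PRPS2, one of the synthetases that turn ribose 5-phosphate and ATP into PRPP, was the member that stood out in 22Rv1-DR cells. Probe set 203401_at read 14164.6, 11747.0 and 11505.2 on the 22Rv1-DR arrays against 975.5, 1136.2 and 1152.1 on the 22Rv1 arrays. The groups were an order of magnitude apart and each was tight. The 22Rv1-DR intensity was 14.5, 10.3 and 9.99 times the 22Rv1 intensity in replicates 1, 2 and 3. The mean change was 3.59 ± 0.25 (SE, n = 2 per group), with 3.30 on the third pair. PRPS2 was not a silent gene beforehand: its 22Rv1 values lay at the 89.6, 91.2 and 93.8 percentiles of their arrays, and its 22Rv1-DR values at the 99.6, 99.4 and 99.6 percentiles.

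The larger array type holds a further PRPS2 probe set, 230352_at, which read 1663.5 in 22Rv1-DR and 171.3 in 22Rv1 cells, a ratio of 9.71 and a difference of 3.16 on the log2 scale. The same probe set read 101.1 in DU145-DR and 168.9 in DU145 cells, a difference of -0.66. In the DU145 line 203401_at read 1360.6, 1951.0 and 670.9 in resistant cells against 1314.2, 1782.9 and 537.5 in parental cells. These groups overlapped (change 0.09 ± 0.25, limma adjusted p = 0.947, 0.31 on the third pair), and the 2 probe sets pointed opposite ways on the third pair of DU145. On the 4 arrays with like distributions 203401_at stood at 11505.2 in 22Rv1-DR cells, followed by 22Rv1 at 1152.1, DU145-DR at 670.9 and DU145 at 537.5, an order that rests on 1 array per group.

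Among fibroblast markers 1 gene, LUM, passed the test between the 22Rv1 groups. COL3A1, which did not pass, read 33.8, 23.1 and 49.9 in 22Rv1-DR against 21.3, 17.8 and 30.1 in 22Rv1 cells. DCN, left out by the dim filter, read 76.6, 36.5 and 50.6 against 23.4, 17.0 and 107.6. The summed intensity of the 8 fibroblast markers was 3048 to 4197 on the 22Rv1-DR arrays of replicates 1 and 2 against 223 to 235 on the 22Rv1 arrays, and 2043 against 1204 on the third pair. Without LUM the other 7 genes summed to 213 to 270 in 22Rv1-DR against 181 to 206 in 22Rv1 cells, and to 344 against 475 on the third pair, where the order turned round. Of 7 tested, 1 rose, against 3.13% of all genes, and 6 did not pass. It was LUM, the gene of the matrix proteoglycan lumican (log2 change 6.04, 1.20 on the third pair). The summed intensity of 6 leukocyte and endothelial markers was 97.4 to 117 in 22Rv1-DR and 111 to 118 in 22Rv1 cells. Of 7 epithelial markers tested, 1 fell in 22Rv1-DR (CDH1), against 2.43% of all genes. The part of these markers in the PRPS2 result was not tested.

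PRPS1, the sister synthetase gene, also annotated on the X chromosome, did not pass the test in either line. Its probe set 209440_at read 1067.5, 1252.0 and 1296.1 in 22Rv1-DR cells against 1120.6, 1269.5 and 922.9 in 22Rv1 cells. The groups overlapped (change -0.04 ± 0.22, limma adjusted p = 1), with 0.48 on the third pair. In the DU145 line the same probe set read 1795.3, 1964.6 and 1260.7 in resistant against 1448.2, 2062.2 and 797.9 in parental cells (0.12 ± 0.22, adjusted p = 0.889, 0.65 on the third pair). Its other probe set, 208447_s_at, gave 0.01 in DU145 and 0.13 in 22Rv1, with -0.10 and 0.51 on the third pairs. No PRPS1 change was detectable with 2 arrays per group.

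The 250 bases before the annotated start of each synthetase gene are given for the same comparison of a member that stood out with a relative that did not, at chrX:12791162-12791411 (plus strand) for PRPS2 and chrX:107628260-107628509 (plus strand) for PRPS1, with capitals as above.
PRPS2: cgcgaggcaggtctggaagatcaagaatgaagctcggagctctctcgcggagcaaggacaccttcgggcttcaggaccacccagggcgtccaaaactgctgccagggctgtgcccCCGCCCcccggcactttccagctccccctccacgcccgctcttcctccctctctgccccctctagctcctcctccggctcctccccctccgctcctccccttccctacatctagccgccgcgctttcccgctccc
PRPS1: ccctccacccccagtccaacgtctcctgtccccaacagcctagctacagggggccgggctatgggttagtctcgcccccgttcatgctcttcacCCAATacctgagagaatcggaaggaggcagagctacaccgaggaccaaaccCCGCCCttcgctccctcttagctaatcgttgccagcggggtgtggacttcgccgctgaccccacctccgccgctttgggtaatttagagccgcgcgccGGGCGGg
The PRPS2 window held 1 GC box and none of the other motifs, with 67.6% GC and 17 CpG. The PRPS1 window held 2 GC boxes and 1 CCAAT, with 63.6% GC and 19 CpG.

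PGD, the 6-phosphogluconate dehydrogenase whose step yields NADPH and ribulose 5-phosphate in the oxidative branch, was the one further member to pass the test. Its intensity was 1964.6 and 1820.3 on the DU145-DR arrays of replicates 1 and 2 against 955.4 and 1144.1 on the DU145 arrays, and the third pair read 1243.3 against 1105.1. The groups did not overlap, the ratios being 2.06, 1.59 and 1.13. The change of 0.85 ± 0.20 had a limma adjusted p of 0.0319, while the third pair gave only 0.17. The call is fragile: it was kept without DU145-DR replicate 2 (adjusted p = 0.0376) and lost without any other one of the 8 arrays (0.0567 to 0.149), on the 4 DU145 arrays alone (0.130) and on all 12 arrays (0.505).

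PGD in the 22Rv1 line read 749.6, 592.2 and 861.1 in resistant cells against 826.0, 729.1 and 744.4 in parental cells, and the groups overlapped (-0.22 ± 0.20, adjusted p = 0.80, 0.21 on the third pair). The difference between the lines in the PGD change, 22Rv1 minus DU145, was -1.06 ± 0.29 with an adjusted p of 0.0612. Its other probe sets, 1560942_at and 1560943_s_at, are on the larger array type only and read 16.4 to 28.1 on its 4 arrays, near the floor. The promoter of PGD, at chr1:10398814-10399063 (plus strand), is shown because it is the called member whose window holds an antioxidant response core, beside 2 GC boxes and 2 CCAAT.
PGD: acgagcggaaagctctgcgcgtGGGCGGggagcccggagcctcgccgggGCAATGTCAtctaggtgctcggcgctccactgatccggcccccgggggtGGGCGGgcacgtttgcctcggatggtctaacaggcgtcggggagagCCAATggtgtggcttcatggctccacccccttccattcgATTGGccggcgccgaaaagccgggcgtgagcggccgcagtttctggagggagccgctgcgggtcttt
Among the other 8 genes, the RPE window also held 1 such core, and none of the other 8 windows did. Its presence is a description of the letters and not evidence of a factor acting there.

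PGLS, the lactonase between the 2 dehydrogenase steps of the oxidative branch, read 1082.4, 1192.7 and 666.3 in DU145-DR cells against 1024.0, 929.3 and 734.2 in DU145 cells with 218388_at (change 0.22 ± 0.18, limma adjusted p = 0.583, -0.14 on the third pair). In the 22Rv1 line it read 765.4, 704.3 and 803.4 in resistant against 996.0, 879.2 and 989.1 in parental cells. All 3 resistant values of that line lay below all 3 parental ones, yet the change of -0.34 ± 0.18 did not pass (adjusted p = 0.434, -0.29 on the third pair). Probe set 218387_s_at gave 0.25 in DU145 and -0.33 in 22Rv1, with -0.34 and -0.42 on the third pairs.

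TALDO1, the transaldolase of the non-oxidative branch, was higher in DU145-DR on each pair without passing. It read 7231.1, 7538.2 and 6251.6 in DU145-DR cells against 5220.6, 6122.9 and 5673.4 in DU145 cells (change 0.38 ± 0.18, limma adjusted p = 0.238, 0.14 on the third pair). In the 22Rv1 line it read 2778.3, 2665.1 and 4420.5 in resistant against 3125.8, 2977.7 and 3565.8 in parental cells, and the third pair (0.31) opposed the change of -0.16 ± 0.18 (adjusted p = 0.865).

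The isomerase RPIA, which makes ribose 5-phosphate from ribulose 5-phosphate, was uneven among the DU145-DR arrays. It read 652.6, 1782.9 and 448.8 there against 1217.7, 1710.3 and 474.4 on the DU145 arrays (change -0.41 ± 0.41, limma adjusted p = 0.667, -0.08 on the third pair). Pairs 1 and 2 differed, at -0.88 and 0.06, and the change depends on which DU145-DR array is kept. It was -1.13 without DU145-DR replicate 2 and 0.30 without DU145-DR replicate 1. RPIA in the 22Rv1 line was higher in 22Rv1-DR on each of the 3 pairs, at 982.3, 942.3 and 1351.2 against 809.0, 719.1 and 1120.6 in 22Rv1 cells, and the change of 0.33 ± 0.41 did not pass (adjusted p = 0.905, 0.27 on the third pair).

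The epimerase RPE, which interconverts ribulose 5-phosphate and xylulose 5-phosphate, read 410.1, 792.4 and 149.1 in DU145-DR cells against 326.3, 608.9 and 160.9 in DU145 cells with 221770_at. In the 22Rv1 line it read 114.6, 143.0 and 167.7 in resistant against 68.6, 114.6 and 181.0 in parental cells. The changes of 0.34 ± 0.39 and 0.46 ± 0.39 did not pass (limma adjusted p = 0.735 and 0.753), and each line gave -0.10 on the third pair. The probe set shared with RPEL1 gave 0.17 and 0.50, and its signal cannot be assigned to 1 gene. The 3 further RPE probe sets of the larger array type gave differences of -0.10 to 0.25 on the third pair of DU145 and -0.33 to 0.24 on that of 22Rv1.

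Counted together, 1 of the 8 members other than TKTL1 rose in DU145-DR (PGD) and none fell (1 and 0 at an unadjusted limma p under 0.05), with a median change of 0.21. Of all 9713 genes tested in that comparison 11.0% passed, 5.53% by a rise and 5.48% by a fall, with a median of -0.01, so the share of members that passed was near that of all genes. Of the 8 members other than PRPS2 in the 22Rv1 line 0 rose and 0 fell (0 and 0 at an unadjusted limma p under 0.05), with a median of -0.10. TKTL1, 1 of these 8, lay under the filter's intensity of 74.0 in both 22Rv1 groups, so its result there says little. In the 22Rv1 line 5.56% of all genes passed, 3.13% by a rise and 2.43% by a fall, with a median of 0.01. Of the 7 members other than TKTL1 and PRPS2, 0 passed the limma test of the difference between the lines (1, PGD, at an unadjusted p under 0.05), where 8.0% of all genes passed. That count depends on the fit. With a term for replicate number, PGD, TALDO1 and PGLS passed it (limma adjusted p = 0.00979, 0.0293 and 0.0393), as did 3080 of the 9713 genes. With that term TALDO1 also passed in DU145 (0.0272) and RPE in 22Rv1 (0.0427), where 3445 and 2147 genes did.

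**Figure D3:**
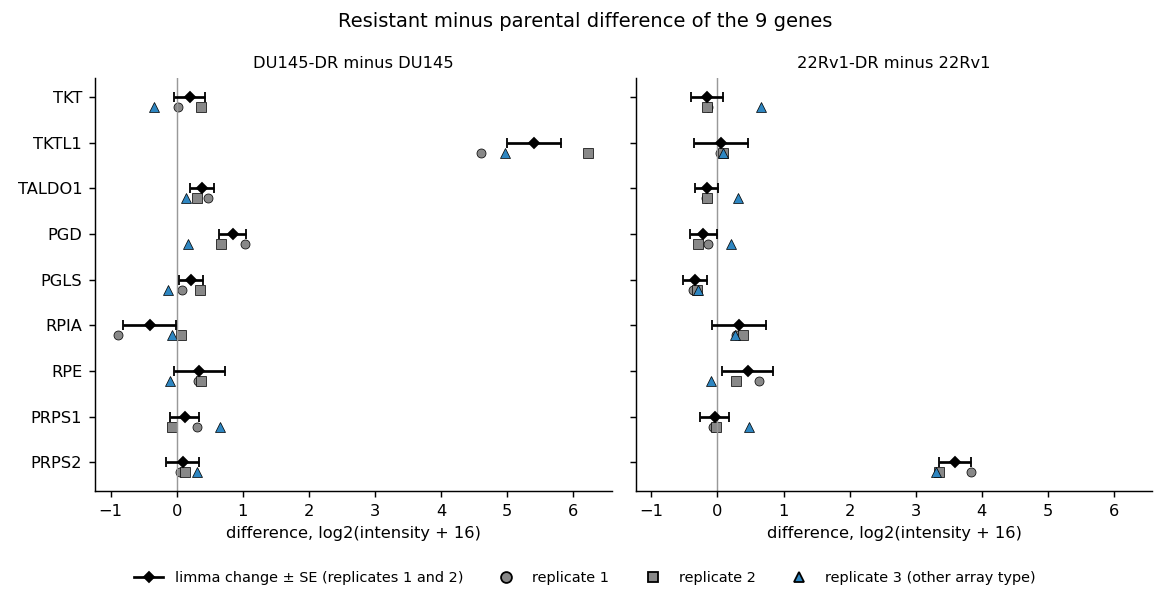
Resistant minus parental difference of log2(intensity + 16) for the 9 genes in each line, with limma's change and its standard error as a diamond with bars and the difference of each replicate below it (circle, square, and triangle for the other array type). TKTL1 in DU145 (5.41) and PRPS2 in 22Rv1 (3.59) lie far to the right on all 3 pairs. Limma's changes of the other members lie between -0.41 and 0.85, and their single replicates between -0.88 (RPIA) and 1.03 (PGD).

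Genes around the pathway were followed in 5 lists, also drawn up with results of these arrays known. Of 7 other ribose phosphate enzymes tested, among them H6PD and the PRPP synthetase-associated genes PRPSAP1 and PRPSAP2, 0 passed in either line (at an unadjusted limma p under 0.05, 0 up and 2 down in DU145, 1 up and 0 down in 22Rv1). The medians were -0.42 in DU145 and -0.0098 in 22Rv1, with -0.80 and -0.07 on the third pairs. In DU145, PRPSAP1 had a difference of -0.43 ± 0.19 (adjusted p = 0.203, -0.89 on the third pair), PRPSAP2 one of 0.02 ± 0.20 (0.990, 0.18 on the third pair) and H6PD one of -0.01 ± 0.26 (0.996, -0.52 on the third pair). In 22Rv1 the differences of PRPSAP1, PRPSAP2 and H6PD were 0.06 ± 0.19 (adjusted p = 1), -0.0098 ± 0.20 (1) and -0.58 ± 0.26 (0.330), with -0.07, 0.11 and -0.62 on the third pair. Of 9 genes of de novo purine synthesis, which starts from PRPP, 0 passed in either line, also at an unadjusted limma p under 0.05, with medians of -0.0048 in DU145 and -0.02 in 22Rv1. The third pairs, which have no test, gave higher medians, 0.61 in DU145 and 0.31 in 22Rv1, against -0.0063 and 0.04 over all genes. PPAT, whose enzyme uses PRPP in the first committed step, had a difference of 0.04 ± 0.22 in 22Rv1 (adjusted p = 1, 0.31 on the third pair) and of -0.0048 ± 0.22 in DU145 (adjusted p = 0.998, 1.24 on the third pair).

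Of 7 genes of pyrimidine synthesis and PRPP-using salvage, 0 passed in DU145 (0 up and 2 down at an unadjusted limma p under 0.05), and 1 rose and 0 fell in 22Rv1, where 3.13% of all genes rose. The medians were -0.07 in DU145 and -0.37 in 22Rv1, with 0 and -0.05 on the third pairs. The gene that rose was QPRT, which makes nicotinate mononucleotide from quinolinate and PRPP. It read 52.3, 53.4 and 26.0 in 22Rv1-DR cells against 15.3, 17.0 and 25.6 in 22Rv1 cells (change 1.10 ± 0.23, limma adjusted p = 0.0307), so that it was near the floor, and the third pair gave 0.01. The call was lost without any 1 of the 4 arrays of that line (adjusted p = 0.170 to 0.220), and over all alternatives its adjusted p reached 0.828. HPRT1, the purine salvage enzyme that uses PRPP, had differences of 0.42 ± 0.21 and 0.13 ± 0.21 without passing (adjusted p = 0.265 and 0.978), with -0.35 and 0.36 on the third pairs.

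Of 12 genes listed as upper glycolysis linked to the pathway, 2 fell and 0 rose in DU145-DR (5 down and 0 up at an unadjusted limma p under 0.05), where 5.48% of all genes fell. The 2 that fell were the phosphatase genes TIGAR and FBP1, and the other 10 did not pass. FBP1 passed the dim filter through DU145 cells alone, the group from which it fell, and was tested near the floor. In replicates 1 and 2 it lay at the 17.0 and 24.2 percentiles of the DU145-DR arrays and the 37.7 and 37.6 percentiles of the DU145 arrays. In 22Rv1-DR 0 passed (1 up and 0 down at an unadjusted limma p under 0.05), where 5.56% of all genes passed. The medians were -0.54 in DU145 and -0.03 in 22Rv1, with -0.25 and 0.12 on the third pairs. TIGAR, a phosphatase of fructose bisphosphate known to turn glucose towards the pentose phosphate pathway, read 498.0, 630.3 and 171.3 in DU145-DR cells against 1418.4, 1663.5 and 471.1 in DU145 cells. Every pair was lower in the resistant cells by a similar amount, with a change of -1.43 ± 0.20 (adjusted p = 0.00303) and -1.38 on the third pair, and the call held without any 1 of the 8 arrays (0.00165 to 0.0277), though not on all 12 arrays in 1 fit (0.116). The size of the TIGAR change stayed between -1.59 and -1.26 over all alternatives, the fit of 12 arrays among them. TIGAR in the 22Rv1 line read 145.0, 131.6 and 256.0 in resistant against 91.8, 92.4 and 280.1 in parental cells (0.51 ± 0.20, adjusted p = 0.227, -0.12 on the third pair). FBP1, a gluconeogenic phosphatase, read 56.1, 61.0 and 20.4 in DU145-DR against 120.3, 97.7 and 131.6 in DU145 cells (-0.74 ± 0.19, adjusted p = 0.0454, -2.02 on the third pair), and the call was lost without any 1 of the 8 arrays (0.0533 to 0.184).

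Among 9 other sources of NADPH, 1 fell and 0 rose in DU145-DR (3 down and 0 up at an unadjusted limma p under 0.05), against 5.48% of all genes that fell. The medians were -0.23 in DU145 and -0.40 in 22Rv1, with -0.23 and -0.20 on the third pairs. The gene that fell in DU145-DR was the mitochondrial isocitrate dehydrogenase gene IDH2, at 421.7, 576.0 and 168.9 in DU145-DR cells against 1160.1, 1120.6 and 630.3 in DU145 cells (change -1.18 ± 0.21, limma adjusted p = 0.00872, -1.81 on the third pair). That call was lost without DU145 replicate 1 (0.0537) and on the 4 arrays of the line alone (0.0523). In 22Rv1-DR 1 rose and 1 fell, both malic enzyme genes, against 3.13% and 2.43% of all genes. The cytosolic ME1 read 226.0, 213.8 and 393.4 in 22Rv1-DR against 108.4, 100.4 and 131.6 in 22Rv1 cells (0.97 ± 0.20, adjusted p = 0.0288, 1.47 on the third pair), a call lost without any 1 of the 4 arrays of that line (0.170 to 0.237) and on all 12 arrays (0.197). The mitochondrial ME3 read 29.7, 23.4 and 69.1 in 22Rv1-DR against 102.5, 118.6 and 128.0 in 22Rv1 cells (-1.57 ± 0.20, adjusted p = 0.00220, -0.76 on the third pair), which held without any 1 of the 8 arrays (0.000782 to 0.0355) and was lost on all 12 (0.0677). The 22Rv1-DR values of ME3 in replicates 1 and 2 were near the floor, at the 36.1 and 30.8 percentiles of their arrays. ME1 and ME3 thus moved in opposite directions in the same cells, with the groups apart on every array of each type. A further malic enzyme gene, ME2, had a difference of 0.40 ± 0.25 in 22Rv1 (limma adjusted p = 0.558, -0.16 on the third pair).

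**Figure D4:**
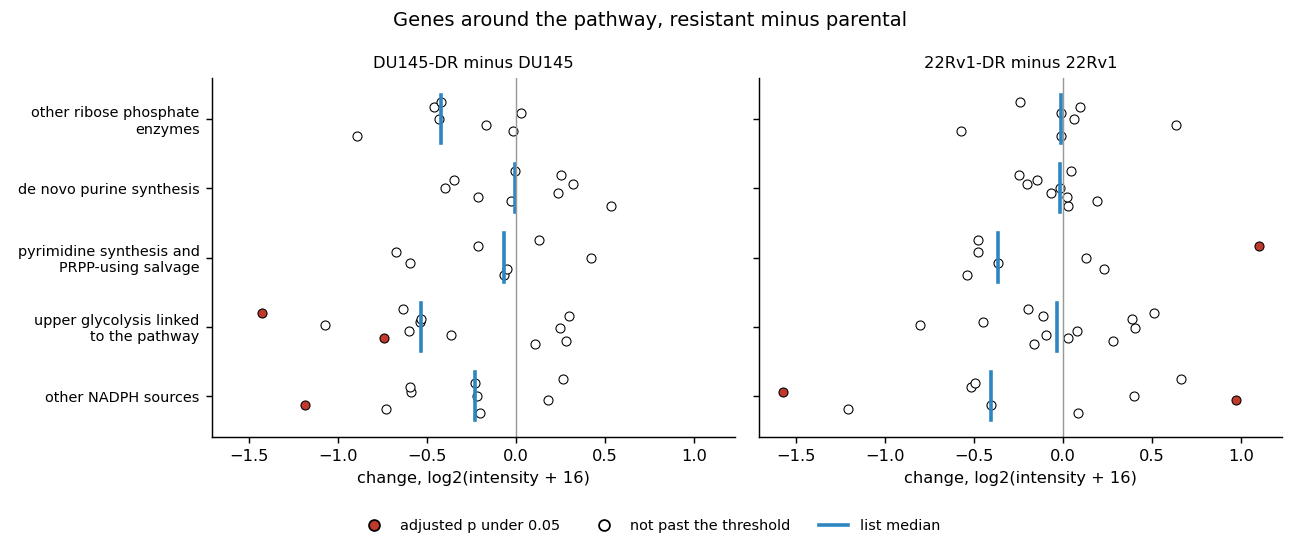
Change in log2(intensity + 16) of each tested gene of the 5 lists around the pathway, resistant minus parental, by line, with filled points past an adjusted p of 0.05, open points for the rest and a bar at each list's median. Few points are filled: TIGAR, FBP1 and IDH2 to the left in DU145-DR, and QPRT, ME1 and ME3 in 22Rv1-DR.

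The genes whose pattern was most like TKTL1 over the 8 arrays, after each line's mean was subtracted, were HAS2, CCN3 and NEFL, with Pearson's r of 0.997, 0.997 and 0.994. Their changes in DU145-DR were 1.99, 2.58 and 3.34 on the log2 scale, with 2.66, 2.69 and 3.13 on the third pair. In 22Rv1-DR they were 0.06, 0.12 and -0.07, with 0.15, 1.43 and -0.17 on the third pair. There CCN3 was unlike TKTL1, which gave 0.09. Those most like PRPS2 were SLC29A3, ADGRL3 and ZG16, with r of 0.996, 0.995 and 0.993, and their changes in 22Rv1-DR were 1.71, 1.38 and 0.83, with 1.59, 0.92 and 0.41 on the third pair. These correlations rest on 8 arrays that share the same groups, they were picked as the highest of all genes, and they carry no test.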

How the data were processed

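Affymetrix arrays of 12 samples in 4 groups were analysed. The deposited values are the authors' probe-set intensity on a linear scale, in a table of 8 arrays (7.52 to 31216) and one of 4 arrays (6.73 to 30786). On the log2 scale 100% of them have 2 decimals, within 1e-05. The submitters' processing notes name MAS5 and RMA, without roles or versions. Precision is limited by the number of arrays.

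Probe sets with 1 gene symbol in the supplied platform annotation were used. For each gene the brightest probe set by mean log2 value was taken, avoiding those prone to cross-hybridization by name where others existed. Values were log2(intensity + 16), and genes above the 40th percentile (intensity 74.0) in no group were left out. A limma 3.58.1 fit of the 8 arrays in R 4.3.3 was used (lmFit, eBayes, 1 term per group, 4 residual and 4.47 prior degrees of freedom), two-sided, with Benjamini-Hochberg adjustment over 9713 genes and a threshold of 0.05. The fit was tested on simulated data with independent noise, which does not cover the correlation of same-numbered arrays given below. The third pair gave differences only. No 2 arrays held identical values.

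The members and lists were chosen with earlier results of these data known. The members are named whatever their result, and of each further list up to 3 genes per line past the threshold by size. PRPSAP1, PRPSAP2, H6PD, PPAT, HPRT1 and ME2 were added for their roles after their values were seen. The 3 genes most like TKTL1 and PRPS2 were named by correlation. Alternatives were a replicate block, quantile normalization, a shift to 1 median, other pseudocounts (1 and 64), the mean of probe sets, each probe set as a feature, no dim filter or one at the 60th percentile, the 4 arrays of a line, all 12 arrays and leaving out each array. Promoters came from RefSeq (GRCh38.p14), in which all 9 genes matched, and their coordinates are of that build. Some genes of these pathways are not reported here.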

Additional observations from a re-analysis of the deposited data

Results flagged for a closer look

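The change of TIGAR differed between the lines in a test of the difference itself: 22Rv1 minus DU145 was 1.94 on the log2 scale (limma adjusted p = 0.00445), from 0.51 in 22Rv1-DR and -1.43 in DU145-DR. Over all alternatives that difference ran from 1.71 to 2.11. The adjusted p was 0.00183 to 0.0328 without any 1 of the 8 arrays, and 0.294 on all 12 arrays in 1 fit.

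The change of QPRT differed as well, by 1.31 (limma adjusted p = 0.0479), with 1.10 in 22Rv1-DR and -0.21 in DU145-DR. The third pair gave a difference of 1.16, but from 0.01 in 22Rv1-DR and -1.15 in DU145-DR, so the array types differ on which line changed. QPRT passed the dim filter through DU145 cells alone. Its values in the 22Rv1 line were near the floor, and those in the DU145 line were low on their arrays too. In replicates 1 and 2 they lay at the 27.7 and 21.1 percentiles in DU145-DR and the 32.9 and 25.6 percentiles in DU145 cells. Over the alternatives the limma adjusted p of the QPRT difference ran from 0.00242 to 0.330.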

How the results depend on the processing

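The counts of changed genes were 1069 in DU145, 540 in 22Rv1 and 777 for the difference between lines. They were 3445, 2147 and 3080 with the replicate block, 462, 225 and 291 on 12 arrays, 449 and 1328 on the 4 arrays of a line, and 1229 for the difference after quantile normalization. Leaving out 1 array gave 489 to 1523, 214 to 866 and 314 to 1280. The TKTL1 change in DU145 was 4.67 with a pseudocount of 64, 4.21 with the mean of probe sets and 4.67 to 6.16 without 1 array. The PRPS2 change in 22Rv1 was 3.09 after quantile normalization. Several members that did not pass changed sign, and the cause was not tested. PRPS1 in 22Rv1 was 0.042 with the mean of probe sets, 0.13 on 12 arrays and -0.16 to 0.069 without 1 array. On 12 arrays TKT was 0.12 in 22Rv1 and 0.10 for the difference between lines. Without 1 array the DU145 values ran from -0.12 to 0.51 for TKT, -1.13 to 0.30 for RPIA, -0.12 to 0.81 for RPE, -0.13 to 0.37 for PRPS1 and -0.17 to 0.35 for PRPS2. TKTL1 in 22Rv1 ran from -0.067 to 0.19, and the difference between lines from -0.35 to 0.57 for RPE and -0.42 to 0.090 for PRPS1.

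Replicate numbers did not formally pair the samples, with 2 pairs per line. Deviations of same-numbered arrays correlated at 0.693 in DU145 and 0.792 in 22Rv1, against 0.0688 to 0.123 across lines. With the replicate block TALDO1 passed in DU145 (adjusted p = 0.0272), RPE in 22Rv1 (0.0427), and the difference between lines for PGD (0.00979), TALDO1 (0.0293) and PGLS (0.0393). The difference for PGD also passed after quantile normalization (0.0499), with a pseudocount of 64 (0.0426), a filter at the 60th percentile (0.0450), the mean of probe sets (0.0488) and without DU145-DR replicate 2 (0.0491). The difference for RPIA was 1.45 without DU145-DR replicate 2 and 0.03 without DU145-DR replicate 1. Low signal over background limits TKTL1 in 22Rv1 and in DU145 cells.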

Other observations

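TKTL1 and PRPS2 are both annotated on the X chromosome, and the 5 tested genes on each side of them in RefSeq order were looked at after the members' values were seen. Of the 10 neighbours of TKTL1 none passed in either line by limma's adjusted p (at an unadjusted p under 0.05, 3 up and 1 down in DU145, 0 up and 1 down in 22Rv1), with differences of -0.63 to 0.71 in DU145-DR. Of the 10 neighbours of PRPS2, 0 rose and 2 fell in 22Rv1-DR (2 and 2 at an unadjusted limma p under 0.05), against 3.13% and 2.43% of all genes, with differences of -1.73 to 0.89, so that none approached the 3.59 of PRPS2. The next tested gene on one side, MSL3, had a difference of -0.35 ± 0.24 (adjusted p = 0.616) in 22Rv1-DR. The next on the other, TMSB4X, the gene of the actin-binding peptide thymosin beta, read 61.0, 74.5 and 200.9 in 22Rv1-DR against 235.6, 288.0 and 302.3 in 22Rv1 cells (-1.73 ± 0.25, adjusted p = 0.00514, -0.55 on the third pair). ARHGAP6, the other neighbour that fell (-1.04 ± 0.19, adjusted p = 0.0135), went the other way on the third pair (1.91). In DU145-DR, where PRPS2 itself did not pass, 3 of the same 10 genes rose and 0 fell (5 and 0 at an unadjusted limma p under 0.05), against 5.53% and 5.48% of all genes. They were MID1 (1.5 ± 0.22, adjusted p = 0.00394, 1.67 on the third pair), MSL3 (1.21 ± 0.24, adjusted p = 0.0151, 1.24 on the third pair) and RAB9A (0.85 ± 0.23, adjusted p = 0.0483, -0.13 on the third pair). MSL3 lost its call without either DU145 array (0.0610 and 0.0876), and TMSB4X without 22Rv1-DR replicate 1 (0.0584), without 22Rv1 replicate 2 (0.0568) and on all 12 arrays (0.0772).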
